A study of Mus musculus with 3 samples.

Results

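The genes of the RAS-ERK pathway were examined in melan-a cells, an immortalized mouse melanocyte line, by RNA-seq of 3 replicates labelled 1, 3 and 4. Of the 22698 genes listed in each library, 7 were chosen by their place in the pathway and not by their level, although earlier results of these data were known. They were the RAS genes *Nras* and *Hras*, the RAF genes *Araf* and *Braf*, the MEK genes *Map2k1* and *Map2k2*, and the ERK gene *Mapk3*. The list is not the whole of each family, so a sum over a pair stands for these genes alone. All 3 replicates shared 1 condition. The cells were C57BL/6J melanocytes that the labels describe as derived from Ink4a-ARF-/- mice, and were grown in 10% fetal bovine serum with 200 nM of the phorbol ester TPA and 200 pM cholera toxin. Each replicate is a bioreplicate of 1 cell line, so the spread between replicates covers this line and not melanocytes of other animals.

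RAS proteins are small GTPases that, when bound to GTP, recruit RAF kinases to the membrane. RAF phosphorylates the dual-specificity kinases MEK1 and MEK2 (the products of *Map2k1* and *Map2k2*), which phosphorylate ERK1 (the product of *Mapk3*) and its relatives. In melanocytes this cascade carries growth signals from receptor tyrosine kinases, and activating mutations of *NRAS* and *BRAF* are frequent in melanoma. Phorbol esters such as TPA stand in for diacylglycerol and activate protein kinase C, and cholera toxin raises cAMP, and both are usual additions to melanocyte culture.

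The values were FPKM, reads per kilobase of gene after scaling to the size of the library, with trimmed-mean (TMM) factors between libraries. The effective size of each library after this scaling, recovered from whole reads on short genes with 1 transcript, was 53900000, 47000000 and 66400000 reads for replicates 1, 3 and 4. The 8 melanocyte markers had a median of 522 FPKM. *Tyrp1* was the highest, at a mean of 3144 FPKM. Of the 8 markers, 7 had at least 1 FPKM in every replicate, as did 44.1% of all listed genes. The exception was *Kit*, at a mean of 0.68 FPKM. Keratinocyte markers summed to 0.36 to 0.70 FPKM per replicate, fibroblast markers to 1.61 to 1.95, leukocyte markers to 0.76 to 1.60 and endothelial markers to 0.01, and *Krt1*, *Ptprc* and *Aif1* were listed at 0 in all 3. *Cdkn2a*, the locus of both Ink4a and ARF, was read at 19.24, 16.49 and 24.32 FPKM in replicates 1, 3 and 4, which goes against a complete loss of its transcript. A value per gene does not show which exons were read, so these values do not settle the genotype. Ink4a-ARF-/- is given here only as labelled.

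The paralogs encode closely related proteins from different codons. Stretches of coding sequence are therefore shown for the RAS and the MEK pair, as the 20 codons after codon 65 that differ most between paralogs while encoding the same residues. Capitals mark bases that differ within a pair. The RAS stretches cover codons 142 to 161 in exons 4 and 5, at chr3:102866430-102867285 on the plus strand for *Nras* and chr7:148377334-148378056 on the minus strand for *Hras*, both ends included with the intron between them. The MEK stretches lie in exon 6, at chr9:64041557-64041616 on the minus strand for codons 196 to 215 of *Map2k1* and chr10:80582019-80582078 on the plus strand for codons 200 to 219 of *Map2k2*. All positions are of NCBIM37, the mm9 assembly.
Nras: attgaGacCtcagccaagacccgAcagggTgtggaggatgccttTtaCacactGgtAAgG
Hras: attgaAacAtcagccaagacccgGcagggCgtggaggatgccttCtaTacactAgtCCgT
Map2k1: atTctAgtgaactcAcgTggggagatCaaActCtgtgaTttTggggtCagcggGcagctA
Map2k2: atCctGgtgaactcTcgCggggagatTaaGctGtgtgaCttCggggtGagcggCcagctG
In the RAS stretch 10 of 60 bases differed, in the MEK stretch 12 of 60, and the *Map2k2* stretch had a GC content of 60% against 50% in *Map2k1*. Over the whole proteins, 162 of 189 aligned residues were identical between *Nras* and *Hras* (85.7%), and 81 of these had different codons. The MEK proteins shared 321 of 392 aligned residues (81.9%), of which 132 had different codons, and the RAF proteins shared 368 of 603 (61.0%), of which 221 did. The longest run of bases shared by the transcripts of a pair was 23 for *Nras* and *Hras*, 17 for *Araf* and *Braf* and 56 for *Map2k1* and *Map2k2*. How the authors' counting treated reads that lie within such runs was not tested.

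All 7 genes had at least 1 FPKM in every replicate, as did 44.1% of all listed genes, and the 6 other than *Braf* had at least 5 FPKM, as did 30.8%. *Mapk3* was by far the highest, at rank 159 of 22698 by its mean, and *Braf* the lowest, at rank 9240. Between them lay both MEK genes at ranks 921 and 984, both RAS genes at 2482 and 2767, and *Araf* at 3479. The place of *Araf* below the RAS genes turned with the gene length. With the longest protein-coding transcripts as lengths, the means were 42.2 FPKM for *Araf*, 36.2 for *Hras* and 25.2 for *Nras*, and with the transcripts of the longest coding sequence, 51.1, 36.2 and 36.7. *Mapk3* remained the highest and *Braf* the lowest of the 7 with both of these lengths. Each gene was far above the FPKM that 3 reads give in the shallowest library, which was 0.030 for *Mapk3* and 0.005 for *Braf*.

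**Figure D1:**
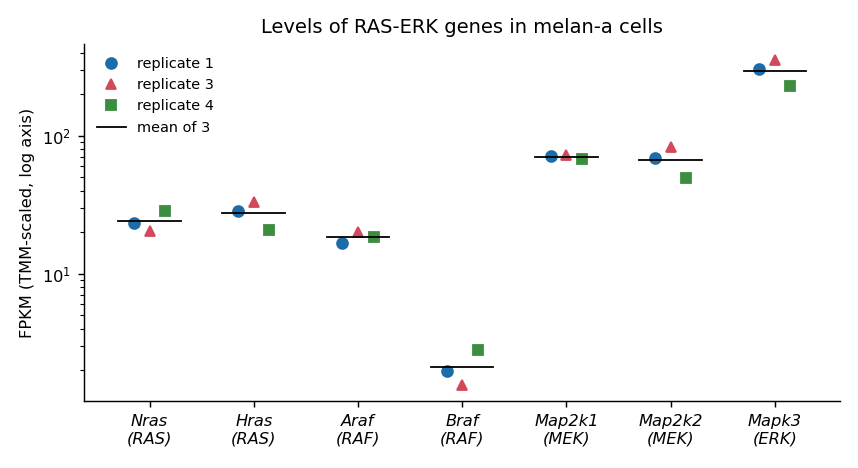
Levels of the 7 genes in each replicate, in FPKM on a log axis, with a bar at the mean of the 3 replicates and the step of the cascade under each name. *Mapk3* lies above 231 FPKM in every replicate, *Braf* at or below 2.82, and the paralogs of the RAS and MEK pairs overlap.

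*Nras* (ENSMUSG00000027852, chr3:102862152-102871837, plus strand) and *Hras* (ENSMUSG00000025499, named Hras1 in the annotation, chr7:148375004-148379904, minus strand) encode GTPases that differ mainly in their C-terminal, lipid-modified tails. *Nras* was at 23.23, 20.58 and 28.40 FPKM in replicates 1, 3 and 4, a mean of 24.1 ± 3.98 (SD, n = 3). *Hras* was at 28.45, 32.92 and 20.79 FPKM, a mean of 27.4 ± 6.13 (SD, n = 3). The 2 ranges overlapped, and the replicate that was highest for *Nras*, replicate 4, was lowest for *Hras*. Within a library the ratio of *Nras* to *Hras* was 0.817, 0.625 and 1.37 (replicates 1, 3 and 4; geometric mean 0.887). *Hras* was thus the higher gene in 2 of 3 libraries, and the ratio lay on both sides of 1. The exact sign-flip permutation test over 3 libraries gave p = 0.75 (two-sided, adjusted p = 0.75). With 3 libraries this test cannot go below 0.25, so it cannot decide whether the 2 genes differ. Without replicate 3 the ratio was 1.06. As deposited, the sum of both genes varied less than either, at 51.7, 53.5 and 49.2 FPKM. After the correction for GC content described below, the sum varied more than *Nras*. The sum then lay at 51.3, 53.6 and 47.9 FPKM, and *Nras* at 23.1, 23.9 and 24.8.

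*Araf* (ENSMUSG00000001127, chrX:20374940-20437645, plus strand) and *Braf* (ENSMUSG00000002413, chr6:39553236-39675462, minus strand) encode RAF kinases, of which B-RAF has the higher basal kinase activity. *Araf* was at 16.84, 19.96 and 18.47 FPKM in replicates 1, 3 and 4, a mean of 18.4 ± 1.56 (SD, n = 3). *Braf* was at 1.98, 1.56 and 2.82 FPKM, a mean of 2.12 ± 0.642 (SD, n = 3). The lowest *Araf* value stood well above the highest *Braf* value. The ratio of *Araf* to *Braf* was 8.51, 12.8 and 6.55 (geometric mean 8.93), so that *Araf* made up 86.8% to 92.8% of the pair. *Araf* was higher in 3 of 3 libraries, the most that this design can show (exact sign-flip permutation test, two-sided, p = 0.25, the smallest value 3 libraries allow, adjusted p = 0.417). The joined exons of *Braf* span 13862 bases, and its values correspond to about 1479, 1016 and 2596 reads, against 5937, 6136 and 8022 for *Araf*, whose joined exons span 6541 bases.

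The size of the RAF ratio depended on the gene length. FPKM of short genes with several transcripts came closest to whole reads when the joined exons of all transcripts were taken as the length. With the longest protein-coding transcript of each gene in place of the joined exons, the geometric mean ratio of *Araf* to *Braf* was 14.4, and with the transcript of the longest coding sequence, a choice made after seeing the data, it was 17.4.

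The promoter of *Braf* is shown because it was the lowest of the 7 genes and because its window held a motif that few windows hold, and the promoter of *Nras* because it held an E-box. The windows are the 250 bases before the RefSeq start (GRCm38.p6), at chr6:39725464-39725713 on the minus strand for *Braf* and chr3:103058035-103058284 on the plus strand for *Nras*, 5′ to 3′, with motif matches in capitals.
Braf: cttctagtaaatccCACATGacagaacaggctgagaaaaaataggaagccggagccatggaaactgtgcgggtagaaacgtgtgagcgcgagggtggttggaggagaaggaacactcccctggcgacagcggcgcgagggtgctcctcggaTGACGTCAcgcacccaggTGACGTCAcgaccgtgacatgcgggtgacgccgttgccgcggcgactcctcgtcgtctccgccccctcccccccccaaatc
Nras: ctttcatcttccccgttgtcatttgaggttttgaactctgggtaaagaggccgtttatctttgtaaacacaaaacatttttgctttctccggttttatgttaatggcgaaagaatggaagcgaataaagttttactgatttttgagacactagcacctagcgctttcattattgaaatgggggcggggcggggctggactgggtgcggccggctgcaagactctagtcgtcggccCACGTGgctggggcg
The windows of 6 genes (*Nras*, *Hras*, *Araf*, *Braf*, *Map2k1* and *Map2k2*) were searched on both strands for 6 motifs. The cAMP response element TGACGTCA occurred 2 times in the *Braf* window, beginning 99 and 81 bases before the start, and was found in 1.55% of 32851 windows. The E-box CACGTG, a core bound by MITF and other factors of its class, occurred 1 time in the *Nras* window, 15 bases before the start, and in 6.02% of all windows. The related CATGTG occurred 1 time in the *Braf* window, 236 bases before the start on the opposite strand (CACATG), and in 12.25% of all windows. The palindromes bound by TFAP2 factors, GCC and GGC with 3 or 4 bases between them, were in none of these 6 windows and in 13.73% and 12.33% of all windows. The shorter TFAP2A consensus that the authors give, GCCNNNGG, was not among the 6 motifs. Absence of the palindromes is therefore not absence of a TFAP2 site, and binding was not examined. The TPA response element TGANTCA was in none of the 6 and in 6.75% of all windows. None of these letters overlapped those of another motif in the 6 windows.

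*Map2k1* (ENSMUSG00000004936, chr9:64033577-64101438, minus strand) and *Map2k2* (ENSMUSG00000035027, chr10:80568660-80587442, plus strand) encode MEK1 and MEK2. *Map2k1* was the steadiest of the 7 genes, at 71.08, 73.07 and 67.82 FPKM in replicates 1, 3 and 4 (mean 70.7 ± 2.65, SD, n = 3). *Map2k2* was at 68.75, 82.79 and 49.26 FPKM (mean 66.9 ± 16.8, SD, n = 3). The range of *Map2k1* lay within that of *Map2k2*. The ratio of *Map2k2* to *Map2k1* was 0.967, 1.13 and 0.726 (geometric mean 0.927). *Map2k2* was above *Map2k1* in replicate 3 alone, so the order of both genes differed between libraries. The exact sign-flip permutation test over 3 libraries gave p = 0.75 (two-sided, adjusted p = 0.75). With a smallest possible value of 0.25, it could not settle the order. Without replicate 4 the ratio was 1.05, and with the longest protein-coding transcripts as lengths it was 1.03.

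*Mapk3* (ENSMUSG00000063065, chr7:133903115-133909333, plus strand), which encodes ERK1, was at 303.02, 352.80 and 231.18 FPKM in replicates 1, 3 and 4 (mean 296 ± 61.1, SD, n = 3). It stood above 99.3% of the listed genes, and its lowest value lay above the highest value of each of the other 6 genes. It was also higher than each of the 75 other pathway genes described below. The reads on it came to about 35328, 35866 and 33203. No exon of another gene lay over the exons of any of the 7 genes on their own strand, and on the opposite strand such overlap came to 9 bases of *Araf* and 146 bases of *Braf*.

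Levels were higher for the MEK than for the RAF pair, and higher again for *Mapk3*, in each of the 3 libraries. *Map2k1* and *Map2k2* together had 139.8, 155.9 and 117.1 FPKM in replicates 1, 3 and 4, and *Araf* and *Braf* together 18.8, 21.5 and 21.3. The ratio of these sums was 7.43, 7.24 and 5.50, with a geometric mean of 6.66. *Mapk3* was 2.17, 2.26 and 1.97 times the sum of both MEK genes, with a geometric mean of 2.13. Both ratios were above 1 in 3 of 3 libraries (exact sign-flip permutation test, two-sided, p = 0.25 for each, the smallest possible, adjusted p = 0.417 over 5 ratios). With levels compared as separate groups of 3 libraries, the exact permutation test gave p = 0.1 for these 2 ratios and for *Araf* against *Braf*, again the smallest value possible (adjusted p = 0.167). That test ignores that both levels come from the same 3 libraries, so its smaller p-value is no stronger evidence. With the longest protein-coding transcripts as lengths the MEK to RAF ratio was 4.44, and with the transcripts of the longest coding sequence it was 3.71. In the order of the 7 genes, *Mapk3*, *Map2k1*, *Map2k2*, *Hras*, *Nras*, *Araf* and *Braf*, neighbours overlapped between *Map2k1* and *Map2k2* and between *Hras* and *Nras*. The ranges of the other 4 neighbouring pairs did not overlap as deposited, but that of *Nras* above *Araf* held only with the joined exons as lengths and reversed with both other lengths given above.

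**Figure D2:**
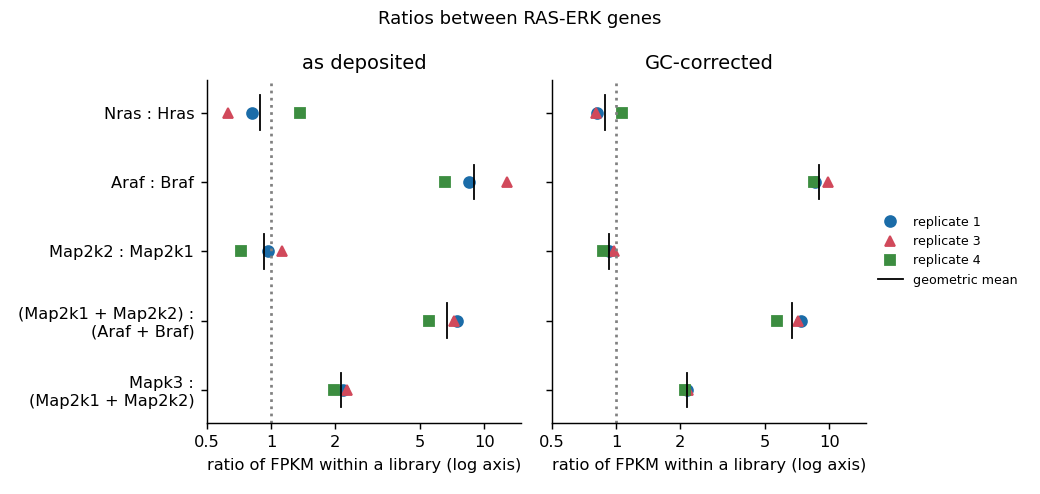
Ratios of FPKM within each library on a log axis, as deposited (left) and after correction for GC content (right), with a short line at the geometric mean of 3 libraries and a dotted line at equal levels. The *Nras* to *Hras* ratio runs from 0.625 to 1.37 as deposited and from 0.802 to 1.07 after the correction, and the *Araf* to *Braf* ratio stays above 6 in every library.

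The 7 genes differed in how much they varied between replicates. The direction of the difference between replicates 3 and 4 went with their GC content. The highest replicate was more than 1.5 times the lowest for 4 of 7 genes (*Hras*, *Braf*, *Map2k2* and *Mapk3*), and for 18.8% of the 10011 genes with at least 1 FPKM in every replicate. The median of the highest over the lowest was 1.53 for the 7 genes and 1.25 for all of these genes. *Hras*, *Map2k2* and *Mapk3* were more than 1.5 times higher in replicate 3 than in replicate 4, a direction found for 6.38% of all genes tested. Their transcripts had a GC content of 55.2%, 60.4% and 57.6%. *Braf*, with 42.6% GC, was 1.81 times higher in replicate 4 than in replicate 3, a direction found for 12.2% of the genes. *Nras*, with 44.1% GC, went the same way, by -0.46 on the log2 scale of replicate 3 over replicate 4. *Araf* at 55.0% GC and *Map2k1* at 51.2% both differed by 0.11.

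Over all 10006 such genes with a known transcript, the log2 ratio of replicates 3 and 4 followed GC content, with a Spearman's rho of 0.777. This rho describes genes of the same 2 libraries, which are no independent replicates. Genes of like GC content had a median log2 ratio of 0.52 at that of *Map2k2*, 0.42 at that of *Mapk3* and -0.47 at that of *Braf*, against the genes' own values of 0.75, 0.61 and -0.85. For *Nras* these were -0.41 among genes of like GC content and -0.46 for the gene, and for *Map2k1* 0.05 and 0.11. *Hras* lay further from genes of its GC content, at 0.66 against their 0.30, and *Araf* lay below them, at 0.11 against 0.28. The libraries also differed in depth, and replicate 3 was the shallowest and replicate 4 the deepest. The part of depth in these differences was not tested.

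**Figure D3:**
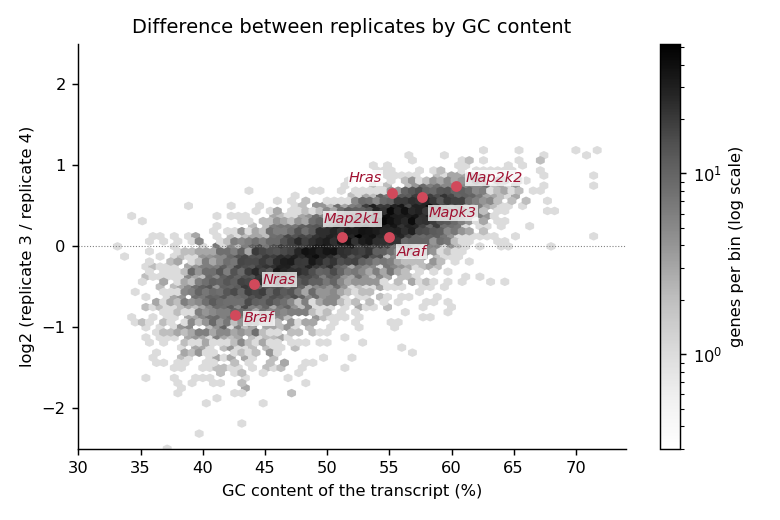
The log2 ratio of replicate 3 to replicate 4 (vertical axis) against the GC content of the transcript in percent (horizontal axis), with grey bins for the genes with at least 1 FPKM in every replicate and red points for the 7 genes. *Nras* and *Braf* lie below 0 at 44.1% and 42.6% GC, and *Hras*, *Mapk3* and *Map2k2* lie above 0.6 at 55.2% to 60.4% GC.

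When the median deviation of genes of like GC content was removed from each library, the highest replicate was more than 1.5 times the lowest for 0 of the 7 genes and for 5.79% of all genes tested. *Nras* then lay at 23.1, 23.9 and 24.8 FPKM in replicates 1, 3 and 4, and its highest value was 1.08 times its lowest. *Mapk3* lay at 297, 310 and 271 FPKM, *Map2k2* at 66.3, 70.3 and 59.9, and *Braf* at 1.96, 1.85 and 2.41. The replicates lay closer together than before for 6 of the 7 genes, and for *Araf* the highest over the lowest went from 1.19 to 1.22. The correction by its construction leaves the mean level of a gene nearly in place. It removes differences between libraries and not an effect of GC content that all 3 share. The ratio of *Araf* to *Braf* became 8.55, 9.81 and 8.48, and that of *Mapk3* to the MEK genes 2.16, 2.18 and 2.10. *Map2k2* was then below *Map2k1* in 3 of 3 libraries, at ratios of 0.930, 0.979 and 0.868, although the ranges of both genes still overlapped (exact sign-flip permutation test, two-sided, p = 0.25, the smallest possible, adjusted p = 0.312). *Hras* was above *Nras* in replicates 1 and 3 and below it in replicate 4, as before. Counting error was 3.14% of the value for the lowest *Braf* library and at most 1.5% for the other genes. Not every difference between replicates was larger than this. The corrected ratios of *Araf* to *Braf* in replicates 1 and 4, 8.55 and 8.48, lay closer together.

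Around these 7 genes, 75 further genes of the pathway were taken from 9 lists. Of these, 55 had at least 1 FPKM in every replicate (73.3%, against 44.1% of all listed genes), and 7 were listed at 0 in all 3 replicates. At a threshold of 0.5 FPKM the number was 59 (background 47.0%) and at 5 FPKM it was 50 (background 30.8%). Their median was 13.3 FPKM. By mean level, 5 of the 75 were above *Map2k1* and 22 were below *Braf*.

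All 7 RAS-related GTPases had at least 1 FPKM in every replicate, against 44.1% of all listed genes. They ran from *Rap1a* at 9.24, 7.08 and 10.24 FPKM in replicates 1, 3 and 4 to *Rras* at 75.85, 84.94 and 74.05. *Rras*, which encodes R-Ras, was thus above *Nras* and *Hras* in every replicate. The enzymes and chaperones that lipidate RAS and move it to the membrane were all expressed as well, in 7 of 7 cases (against 44.1% of all listed genes). They ran from *Fntb*, the beta subunit of farnesyltransferase, at a mean of 10.7 FPKM to *Pde6d*, a prenyl-binding chaperone, at 47.1.

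Exchange factors and adaptors load RAS with GTP downstream of receptors. Of 13, 8 had at least 1 FPKM in every replicate (61.5%, against 44.1% of all listed genes). *Shc1*, an adaptor, was highest at 81.79, 90.42 and 66.57 FPKM. *Rasgrp1* was listed at 0 in every replicate, as were 3 others, *Rasgrp4*, *Rasgrf1* and *Rasgrf2*. Of the RASGRP exchange factors, most of which bind diacylglycerol, *Rasgrp3* was at 17.43, 14.60 and 21.86 FPKM, and *Rasgrp2* had a mean of 0.98. These RASGRP and RASGRF genes other than *Rasgrp1* were named after their values were seen. The GTPase-activating proteins, which switch RAS off, had 6 of 9 members at 1 FPKM or more in every replicate (66.7%, against 44.1% of all listed genes). *Rasa3* was highest at a mean of 54.1 FPKM and *Rasal3* was listed at 0.

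**Figure D4:**
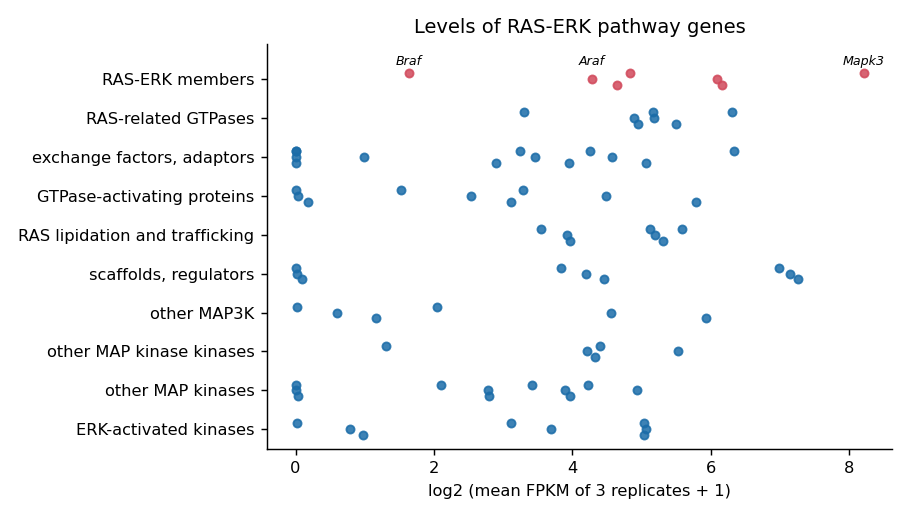
Mean level of each gene as log2(FPKM + 1), with the 7 RAS-ERK genes in red and the 75 further pathway genes in blue, 1 row per list and 1 point per gene. *Mapk3* lies to the right of all other points, and *Braf* to the left of the other 6 members.

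Of the scaffolds and regulators of RAF, MEK and ERK, 6 of 9 were expressed (66.7%, against 44.1% of all listed genes). *Pea15a*, whose product holds ERK in the cytoplasm, was highest at 148.41, 175.11 and 134.66 FPKM, and *Cnksr2* was listed at 0. Among other kinases able to phosphorylate MEK, 3 of 6 had at least 1 FPKM in every replicate, from *Map3k11* at 63.33, 74.69 and 42.95 FPKM to the germ-cell kinase *Mos* at 0.03, 0 and 0. The stress-pathway and other MAP kinase kinases were all present, in 5 of 5 cases (against 44.1% of all listed genes), with *Map2k3* at a mean of 45.2 FPKM and *Map2k6* at 1.47. *Map2k3* lay below *Map2k1* and *Map2k2* within each replicate.

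Other MAP kinases were well below *Mapk3*. Of 11, 8 had at least 1 FPKM in every replicate (72.7%, against 44.1% of all listed genes). The highest, *Mapk6* (ERK3), had a mean of 29.5 FPKM, while *Mapk10* was listed at 0. Of the kinases that ERK activates, 5 of 8 were expressed (62.5%, against 44.1% of all listed genes). *Rps6ka3* (RSK2) was highest at 33.06, 23.36 and 41.51 FPKM and *Rps6ka6* lowest at 0.02, 0 and 0.01.

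For each of the 7 genes, the gene with the most similar log2 FPKM over the 3 replicates was found among 10232 others, by Euclidean distance. These were *Slc38a2* for *Nras* (distance 0.060), *Slc6a9* for *Hras* (0.053), *Lap3* for *Araf* (0.071), *Zbtb6* for *Braf* (0.038), *Prpf8* for *Map2k1* (0.056), *Plbd2* for *Map2k2* (0.040) and *Cotl1* for *Mapk3* (0.077). The GC content of these transcripts was 43.7%, 56.5%, 47.7%, 39.9%, 51.5%, 58.2% and 59.3%, within 3 percentage points of that of the gene they resembled for all but *Lap3*. With 3 replicates of 1 condition, such a match describes level and library differences.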

How the data were processed

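RNA-seq libraries of 3 melan-a bioreplicates were made with a stranded mRNA kit. According to the methods and the submitters' processing notes, the authors trimmed 10 bases, aligned reads to mm9 with STAR 2.3.0e, removed rRNA reads and counted with HTSeq 0.5.3p3 on Ensembl release 67. They deposited TMM-scaled FPKM to 2 decimals. The gene length they used is not given in the sources used here.

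The 7 genes, the lists and the tests were chosen with earlier results of these data known. An mm9 annotation (Ensembl release 65) held 22324 of the 22698 genes. Library sizes were those at which FPKM times length of genes under 400 bases with 1 transcript came closest to whole reads (65, 65 and 71 genes, mean distance 0.043, 0.038 and 0.060 reads). For genes with several transcripts, joined exons gave the smallest distance (0.126 to 0.151, against 0.164 to 0.268 for other lengths). Read numbers and floors cover counting error only.

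Ratios were tested with exact sign-flip and exact permutation tests, with Benjamini-Hochberg adjustment over 5 ratios. For GC content (transcript of the longest coding sequence), the median log2 deviation in 40 bins of genes with at least 1 FPKM was subtracted. The code was tested on simulated libraries (scipy 1.17.1, pandas 2.3.3, numpy 2.4.6 and biopython 1.88 under Python 3.11.15). Alternatives were each replicate left out, medians, a pseudocount of 1, other gene lengths, rescaled values, a filter on genes at 0, GC correction and thresholds of 0.5 and 5 FPKM. Named genes were the 7 members, the highest and lowest gene of each list, the nearest gene of each member and *Cdkn2a*. *Aif1* and the RASGRP and RASGRF genes other than *Rasgrp1* were added after their values were seen. Other paralogs of these families, and 1 further list of cell type markers, are not reported here. RefSeq promoters matched 6 of the 7 genes.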

Additional observations from a re-analysis of the deposited data

How the results depend on the processing

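The ratios of *Araf* to *Braf*, of the MEK to the RAF pair and of *Mapk3* to the MEK pair kept their direction under every alternative run. With each replicate left out they lay at 7.46 to 10.4, 6.31 to 7.34 and 2.07 to 2.21. The ratio of *Nras* to *Hras* lay at 0.714 to 1.06 with each replicate left out and turned to 1.02 with the length of the transcript of the longest coding sequence (added after seeing the data). That of *Map2k2* to *Map2k1* lay at 0.838 to 1.05, and turned to 1.03 with either other length. With 3 libraries no ratio could pass a threshold of 0.05, so the p-values say nothing about stability. Of the level values, 45 moved by less than 1 SD of the replicates and 18 by more, 7 of them after rescaling each library to the same total, which changes the unit, and 5 and 6 with the 2 other lengths (both added for levels after seeing the data), which also placed *Araf* above *Nras* and *Hras*. GC correction moved no mean level by more than 1 SD. By its construction it leaves mean levels and mean ratios nearly in place, so it is no check on them or on their direction. The number of pathway genes called expressed stayed within 1.5 times of 55 at both other thresholds and without each replicate. Counting error was at most 3.14% of a level. The gene length used by the authors limits comparison between genes. So does any effect of GC content shared by all 3 libraries, which was not tested.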
